A study of Mus musculus with 6 samples.

Results

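The Hox genes are the 39 mouse genes named Hoxa, Hoxb, Hoxc or Hoxd followed only by a number. They were found by symbol among the 56748 genes of a brain mRNA table with 6 libraries, and all 39 were present. The libraries were made from homogenized brain of mice implanted with MCF10DCIS CD63-NLuc cells, human ductal carcinoma in situ cells that carry a nanoluciferase fused to the vesicle protein CD63. There were 3 libraries of brain collected 28 days after implantation (day 28) and 3 of brain collected 3 days after it (day 3). Both groups carried the implant, and no library of unimplanted mice was used here. The labels give neither the strain, age or sex of the mice nor whether libraries came from separate animals. The p-values below thus rest on the spread between these libraries, which may not be a spread between animals.

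Hox genes encode homeodomain transcription factors that give cells their position along the head to tail axis. They lie in 4 clusters, A on chromosome 6, B on chromosome 11, C on chromosome 15 and D on chromosome 2, and genes in the same place of different clusters share a paralog number from 1 to 13. Low numbers are used from the hindbrain backwards and high numbers only further towards the tail, and neurons of the hindbrain and spinal cord keep Hox expression in the adult. Forebrain, midbrain and most of the cerebellum derive from tissue that does not use them. Retinoic acid switches on genes of low number in the embryo, Pbx and Meis proteins bind DNA together with Hox proteins, and Polycomb proteins keep the clusters silent elsewhere.

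Promoter windows of 3 of the Hox genes with the most reads are shown because they mark different places in the clusters. The sequences are from RefSeq on GRCm38.p6, 250 bases before to 50 after the start of the gene, read on the strand of the gene; the count table itself was made on GRCm39, per the submitters' processing notes. Capitals mark matches on either strand to AGGTCA, a motif bound by nuclear receptors that include the retinoic acid receptor, to TATAAA, or to TGATTNAT, a site bound by Hox and Pbx proteins together. The Hoxa5 window is chr6:52204538-52204837 on the minus strand, the Hoxb8 window is chr11:96281655-96281954 on the plus strand and the Hoxc4 window is chr15:103034145-103034444 on the plus strand.
Hoxa5: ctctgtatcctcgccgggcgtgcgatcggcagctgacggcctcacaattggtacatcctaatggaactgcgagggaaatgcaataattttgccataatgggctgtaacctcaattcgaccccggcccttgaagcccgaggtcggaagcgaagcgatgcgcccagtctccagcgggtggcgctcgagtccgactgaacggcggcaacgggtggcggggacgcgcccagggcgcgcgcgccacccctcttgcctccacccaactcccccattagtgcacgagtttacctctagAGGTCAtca
Hoxb8: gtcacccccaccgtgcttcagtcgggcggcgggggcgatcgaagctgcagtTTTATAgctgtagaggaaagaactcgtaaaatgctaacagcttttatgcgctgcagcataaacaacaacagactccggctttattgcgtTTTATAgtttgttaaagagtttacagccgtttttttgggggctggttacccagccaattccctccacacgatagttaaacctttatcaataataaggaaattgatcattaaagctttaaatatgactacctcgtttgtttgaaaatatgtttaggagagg
Hoxc4: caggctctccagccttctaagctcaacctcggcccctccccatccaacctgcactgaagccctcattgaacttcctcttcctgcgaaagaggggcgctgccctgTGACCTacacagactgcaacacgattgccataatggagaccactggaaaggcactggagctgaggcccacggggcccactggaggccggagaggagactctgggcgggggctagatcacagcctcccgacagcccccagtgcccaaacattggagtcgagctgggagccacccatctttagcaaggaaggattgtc
RefSeq gave 24 windows for 22 of the 39 genes, and none for the other 17. AGGTCA was in 7 of the 24 windows, against 16.3% of all 32851 windows of this length, and 6 of those 7 belonged to genes read in day 3 replicate 1. There were 11 windows of genes read in that library and 11 of Hox genes with no read in any library. TATAAA was in 4 windows (13.6% of all windows), and TGATTNAT was in 2, those of Hoxa2 and Hoxd11 (3.22% of all windows). The motifs do not overlap one another in the windows shown. A match describes letters in the window, not binding.

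The clusters also hold microRNA genes whose mature products target Hox mRNAs. Mature sequences of their 5' arms are shown with the seed, bases 2 to 8, in capitals, since they fall into 2 seed families.
mmu-miR-10a-5p: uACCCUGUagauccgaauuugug
mmu-miR-10b-5p: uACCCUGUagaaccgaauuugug
mmu-miR-196a-5p: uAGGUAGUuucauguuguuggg
mmu-miR-196b-5p: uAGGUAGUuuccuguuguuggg
The miR-10 pair, from clusters B and D, differs by U12A, and the miR-196 pair, from clusters B and C for miR-196a and A for miR-196b, by A12C, with positions counted from 1 at the 5' end. Their genes Mir10a, Mir10b, Mir196a-1, Mir196a-2 and Mir196b, and Mir615, had 0 reads in every library. The libraries were poly(A)-selected, which does not capture mature microRNAs, so these counts say nothing of the microRNAs themselves.

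The libraries held 11958137 to 16059196 reads assigned to genes. The deposited table is a log2 normalized count, from which whole reads were recovered for every value. Pairs of libraries were compared over the genes with enough reads in the pair, 17573 to 18348 genes. Day 28 pairs differed by 8.39 to 10.3 times the chi-square that sampling alone gives, against 27.6 to 40.1 times for day 3 pairs. The markers of the labelled tissue were present. The summed normalized count of 12 forebrain markers was 8107, 8007 and 6712 in day 28 replicates 1, 2 and 3, against 3867, 5000 and 6832 in day 3 replicates 1, 2 and 3. In the day 3 group, 12 cerebellar markers stood at 39950 and 39102 in replicates 1 and 2 and at 11272 in replicate 3, against 13669, 13180 and 16926 in the day 28 libraries. Itpr1 alone gave 10191, 9383 and 10733 of the day 28 sums and 7301 of that of day 3 replicate 3. The granule cell gene Gabra6 had 0 reads in day 28 replicates 1 and 2 and in day 3 replicate 3. The low cerebellar sums thus say little of the other markers. Day 3 replicate 2 also held 65795 reads of the albumin gene Alb, and its 6 liver markers summed to 95500, against 6261 to 11823 in the other 5 libraries. Ttr, which is also a choroid plexus marker, holds most of the sum in those 5, and without it the other 5 markers summed to 1314, 1511 and 794 at day 28, against 30.2, 81390 and 640 in day 3 replicates 1, 2 and 3.

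Hox reads were nearly absent from the day 28 brains, and most of those at day 3 came from 1 library. The 39 genes together had 2, 7 and 3 reads in day 28 replicates 1, 2 and 3, against 767, 83 and 8 reads in day 3 replicates 1, 2 and 3. Every day 3 library was above every day 28 library, but day 3 replicate 3 was close to the day 28 libraries while replicate 1 was far above all others. Of the 858 day 3 Hox reads, 89.4% were in replicate 1.

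Scaled to the total of each library (RPM), the Hox genes took 0.141 (95% exact binomial interval 0.0170 to 0.508), 0.436 (0.175 to 0.898) and 0.201 (0.0414 to 0.586) in the day 28 libraries. In the day 3 libraries they took 51.0 (47.5 to 54.8), 5.89 (4.69 to 7.31) and 0.669 (0.289 to 1.32). The interval of day 3 replicate 3 overlaps those of all 3 day 28 libraries, whereas those of day 3 replicates 1 and 2 overlap none of the others. These intervals cover counting error only.

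The summed normalized count averaged 3.70 ± 2.25 at day 28 and 266 ± 380 at day 3 (SD, n = 3 each), a log2 difference of -6.17, given with no test because it is a sum over chosen members. The day 3 SD exceeded the day 3 mean. By library the sums were 2.00, 6.25 and 2.84 at day 28, against 703, 85.3 and 9.74 at day 3. Day 3 replicate 1 was 8.23 times replicate 2 and 112 times the highest day 28 library, and day 3 replicate 3 was 1.56 times the highest day 28 library. Without day 3 replicate 1 the log2 difference was -3.69, and without day 3 replicates 1 and 2 together, an alternative chosen after seeing the data, it was -1.40. In bulk tissue, fewer Hox-expressing cells and less Hox RNA per cell cannot be told apart.

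**Figure D1:**
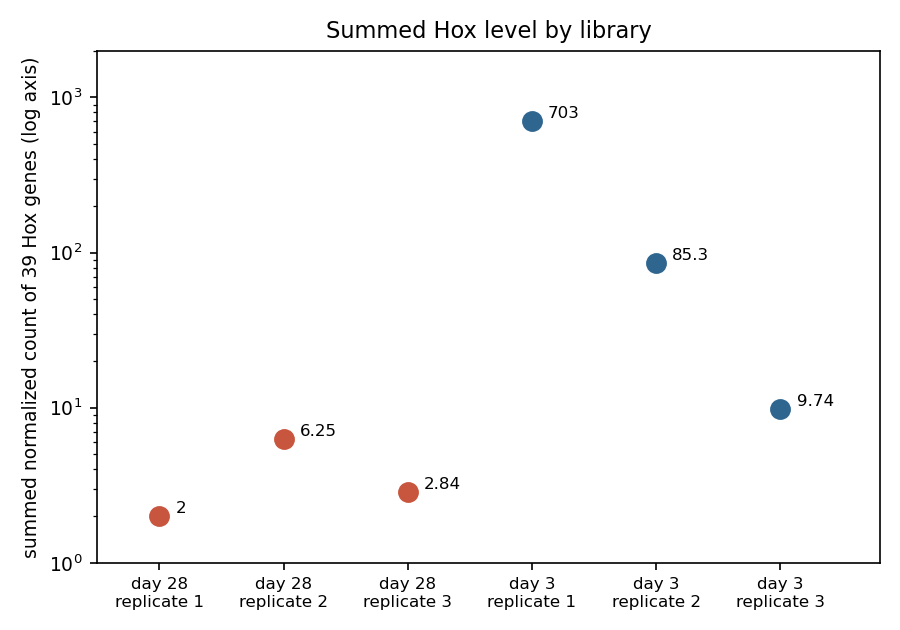
Summed normalized count of the 39 Hox genes (y axis, log scale) in each library (x axis), 1 point per library, with the day 28 libraries (orange) left of the day 3 libraries (blue). The day 28 libraries lie between 2.00 and 6.25, and the day 3 libraries spread from 9.74 to 703.

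Of the 39 genes, 24 had at least 1 read in some library and 15 had none in any. Reads were found for 6 genes at day 28 and for all 24 at day 3. By library, 2, 2 and 3 Hox genes had reads at day 28, against 20, 17 and 6 at day 3. None had reads in every day 28 library, against 4 in every day 3 library (Hoxa4, Hoxa5, Hoxb2 and Hoxc4). Those 4 had 0 reads in all day 28 libraries, and they are the 4 genes whose groups do not overlap, all lower at day 28. For Hoxa4, Hoxa5 and Hoxb2 this rests on 1 read each in day 3 replicate 3, and for Hoxc4 on 3. Among the 29347 genes with any read, 6.29% have groups that do not overlap in that direction.

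By number, the genes fell into a read and an almost unread part of the clusters. Of the 23 genes numbered 1 to 8, 20 had reads in some library and Hoxa6, Hoxb1 and Hoxc8 had none. Of the 16 genes numbered 9 to 13, 4 had reads (Hoxa9, Hoxc9, Hoxc10 and Hoxd13), each 1 read in day 3 replicate 2 and, for Hoxa9, 1 more in day 28 replicate 3. Day 3 replicate 1, which held the most Hox reads, had none from numbers 9 to 13. A count of 0 among its 767 Hox reads allows a share of up to 0.391%, taken as 3 reads, or 0.480% as the upper end of the 95% exact binomial interval. The genes of highest number with reads in that library were Hoxa7, Hoxb8, Hoxc6 and Hoxd8, 1 in each cluster.

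**Figure D2:**
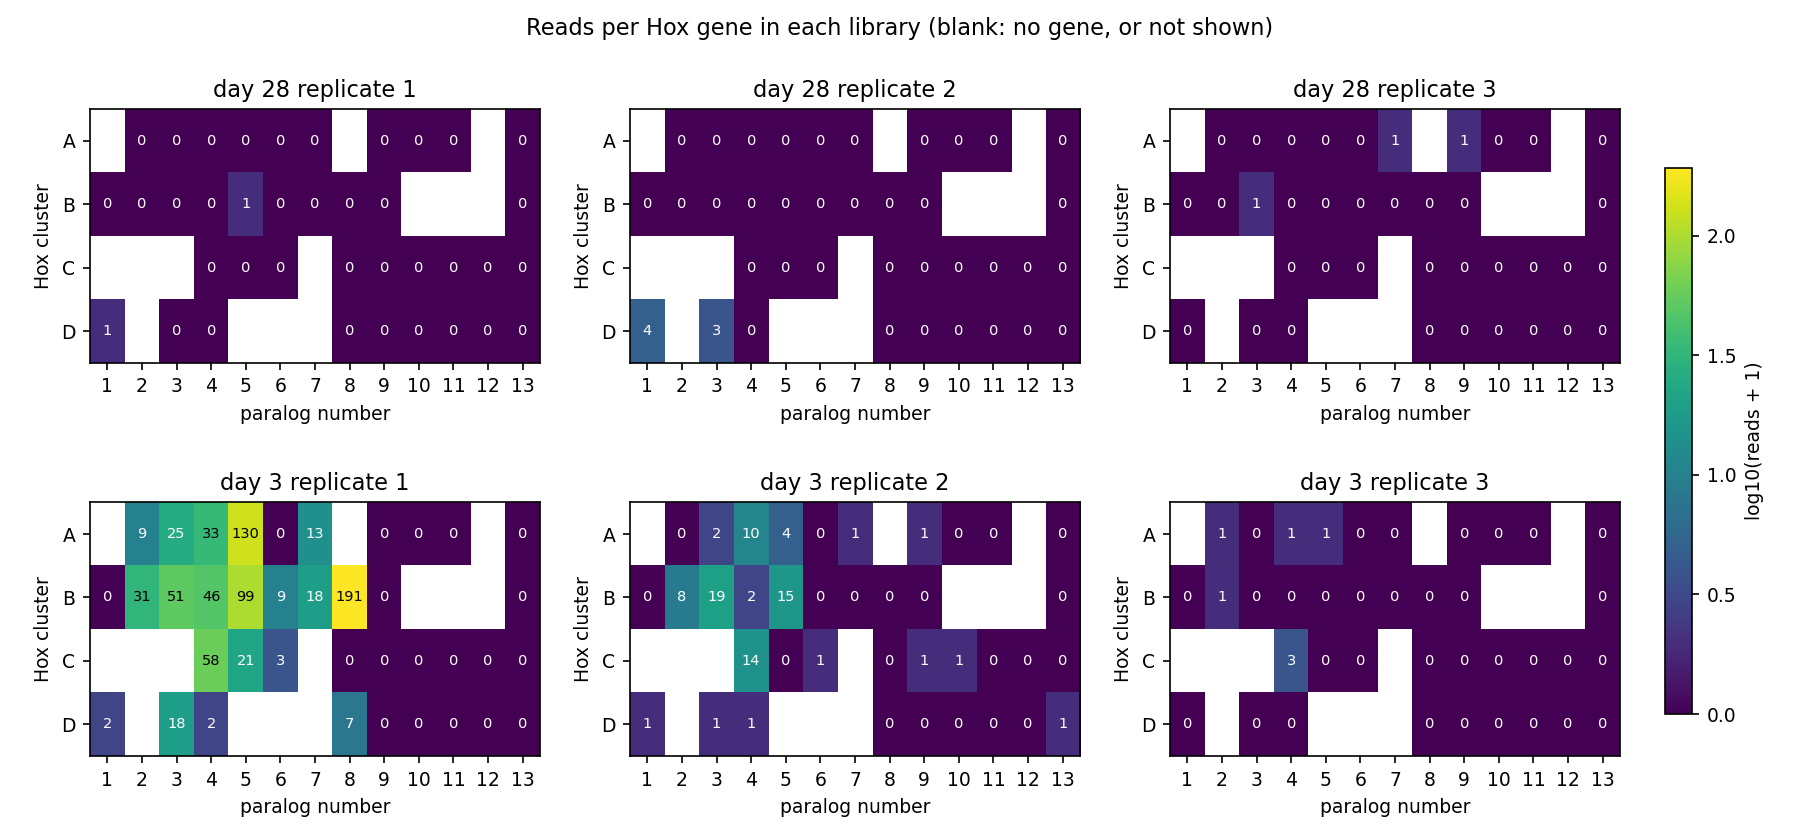
Reads of each Hox gene in each library, with clusters in rows, paralog numbers in columns, the day 28 libraries above the day 3 libraries, and colour giving log10(reads + 1); blank cells are places with no gene or with a gene not shown. Reads fill numbers 1 to 8 in day 3 replicate 1 and mainly numbers 2 to 5 in day 3 replicate 2, and are at most 4 per gene in every other library.

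Genes of numbers 1 and 2 act in the hindbrain, where Hoxa2 and Hoxb2 pattern its segments. Hoxb2 had 0, 0 and 0 reads in the day 28 libraries, against 31, 8 and 1 in the day 3 libraries. Hoxa2 had 0, 0 and 0 at day 28, against 9, 0 and 1 at day 3. Hoxb1, which marks a single hindbrain segment in the embryo, had no reads. Hoxd1 was the member with the most day 28 reads: it had 1, 4 and 0 at day 28, against 2, 1 and 0 at day 3, and these groups overlap.

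Numbers 3 and 4 act at the junction of hindbrain and spinal cord. Hoxb3 passed the filter, which asked for a normalized count that averaged 10 or more across the libraries; it had 0, 0 and 1 reads at day 28, against 51, 19 and 0 at day 3. Hoxc4 passed it as well, with 0, 0 and 0 reads at day 28, against 58, 14 and 3 at day 3. The Hoxc4 groups do not overlap, and those of Hoxb3 do, since day 3 replicate 3 had no Hoxb3 read.

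Under the filter, Hoxa3 had 0, 0 and 0 reads at day 28, against 25, 2 and 0 at day 3. Hoxd3 had 0, 3 and 0 at day 28, against 18, 1 and 0 at day 3. Both overlap between groups, and the 3 Hoxd3 reads of day 28 replicate 2 outnumber its reads in day 3 replicates 2 and 3. Hoxa4 had 0, 0 and 0 at day 28, against 33, 10 and 1 at day 3. Hoxb4 had 0, 0 and 0 at day 28, against 46, 2 and 0 at day 3. Hoxd4 had 0, 0 and 0 at day 28, against 2, 1 and 0 at day 3.

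Number 5 held the most reads of any number in day 3 replicate 1. Hoxa5, which takes part in the patterning of brainstem and neck, passed the filter with 0, 0 and 0 reads at day 28, against 130, 4 and 1 at day 3. Hoxb5 passed it with 1, 0 and 0 reads at day 28, against 99, 15 and 0 at day 3. Hoxc5 had 0, 0 and 0 at day 28, against 21, 0 and 0 at day 3. All 3 were highest in day 3 replicate 1.

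Numbers 6 to 8, used in the embryo from the lower neck backwards, were read almost only in day 3 replicate 1. Hoxb8, the Hox gene with the most reads in any library, had 0, 0 and 0 reads at day 28, against 191, 0 and 0 at day 3. Hoxb7 had 0, 0 and 0 at day 28, against 18, 0 and 0 at day 3, and Hoxa7 had 0, 0 and 1 at day 28, against 13, 1 and 0 at day 3. Hoxb6 and Hoxd8 had 9 and 7 reads in day 3 replicate 1 and none elsewhere, and Hoxc6 had 3 and 1 reads in day 3 replicates 1 and 2. The values of Hoxb8 thus rest on 1 library.

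Numbers 9 to 13 pattern the end of the trunk, the limbs and the urogenital tract. Within them Hoxa10, Hoxa11, Hoxa13, Hoxb9, Hoxb13, Hoxc11, Hoxc12, Hoxc13, Hoxd9, Hoxd10, Hoxd11 and Hoxd12 were at 0 in all 6 libraries.

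No Hox gene was called between day 28 and day 3 at an adjusted p under 0.05 (limma, Benjamini-Hochberg over 16162 tested genes), where 0.192% of all tested genes were called in either direction and 0.124% as lower at day 28. The filter let 5 of the 39 members through, with mean normalized counts of 29.2 (Hoxb8), 20.7 (Hoxa5), 17.9 (Hoxb5), 11.9 (Hoxc4) and 11.2 (Hoxb3), all through the day 3 libraries. Just outside it lay Hoxb4 at 7.37, Hoxa4 at 6.95 and Hoxb2 at 6.31. Of the 5, only Hoxc4 had an unadjusted p under 0.05. With limma's voom on the recovered reads 1 gene had such a p and 0 were called. Hoxa5 and Hoxc4 are the 2 tested members whose groups do not overlap, lower at day 28, against 9.21% of all tested genes. Nothing is read from that count, since the 5 genes entered the fit through the group in which they were high.

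Hoxc4 averaged 0 at day 28, against a normalized count of 23.7 ± 26.0 at day 3 (SD, n = 3), a log2 difference of -3.97 (SE 1.25) with an adjusted p of 0.220 by limma. Hoxa5 averaged 0 at day 28, against 41.5 ± 67.2 at day 3, a log2 difference of -3.47 (SE 1.65) with an adjusted p of 0.409 by limma. Neither difference passed the threshold, and in both genes the day 3 SD exceeded the day 3 mean.

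Hoxb5 averaged 0.333 ± 0.576 at day 28 and 35.4 ± 48.5 at day 3 (log2 difference -3.19, SE 1.68, adjusted p = 0.451 by limma), and Hoxb3 averaged 0.316 ± 0.547 at day 28 and 22.1 ± 23.5 at day 3 (log2 difference -2.99, SE 1.61, adjusted p = 0.460 by limma). Hoxb8 averaged 0 at day 28 and 58.3 ± 101 at day 3 (log2 difference -2.49, SE 2.18, adjusted p = 0.666 by limma). The log2 differences are on the log2(normalized count + 1) scale, which understates changes of genes this low. Set against a floor of 3 reads over the day 28 group, the day 28 mean was at least 61.6-fold lower for Hoxb8, 43.8-fold for Hoxa5 and 25.1-fold for Hoxc4, and day 3 replicate 1 carries most of each bound. Without that library Hoxb8 was at 0 in every remaining library, and the log2 differences were -3.08 for Hoxc4, -1.75 for Hoxa5, -1.69 for Hoxb5 and -1.86 for Hoxb3.

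The 2 day 3 libraries with the most Hox reads held different profiles. Numbers 1 to 5 made up 68.6% (95% exact binomial interval 65.2 to 71.9) of the Hox reads of replicate 1 and 92.8% (84.9 to 97.3) of those of replicate 2. Numbers 6 to 8 made up 31.4% (28.1 to 34.8) in replicate 1 and 2.41% (0.293 to 8.43) in replicate 2, and these intervals do not overlap. Number 8 alone took 25.8% in replicate 1, and 0 of 83 reads in replicate 2, which allows a share of up to 3.61%, taken as 3 reads, or 4.35% as the upper end of the exact interval. The intervals cover counting error within these libraries, so the contrast is between libraries and not between conditions.

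In replicate 1 the largest share belonged to number 5 (32.6%), ahead of number 8 (25.8%), number 4 (18.1%), number 3 (12.3%) and number 2 (5.22%). In replicate 2 it belonged to number 4 (32.5%), ahead of number 3 (26.5%), number 5 (22.9%) and number 2 (9.64%). Of the 24 genes read, 13 had reads in both libraries, 7 in replicate 1 but not replicate 2, and 4 in replicate 2 but not replicate 1, each of these with 1 read there. In all, 18 genes were highest in replicate 1.

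**Figure D3:**
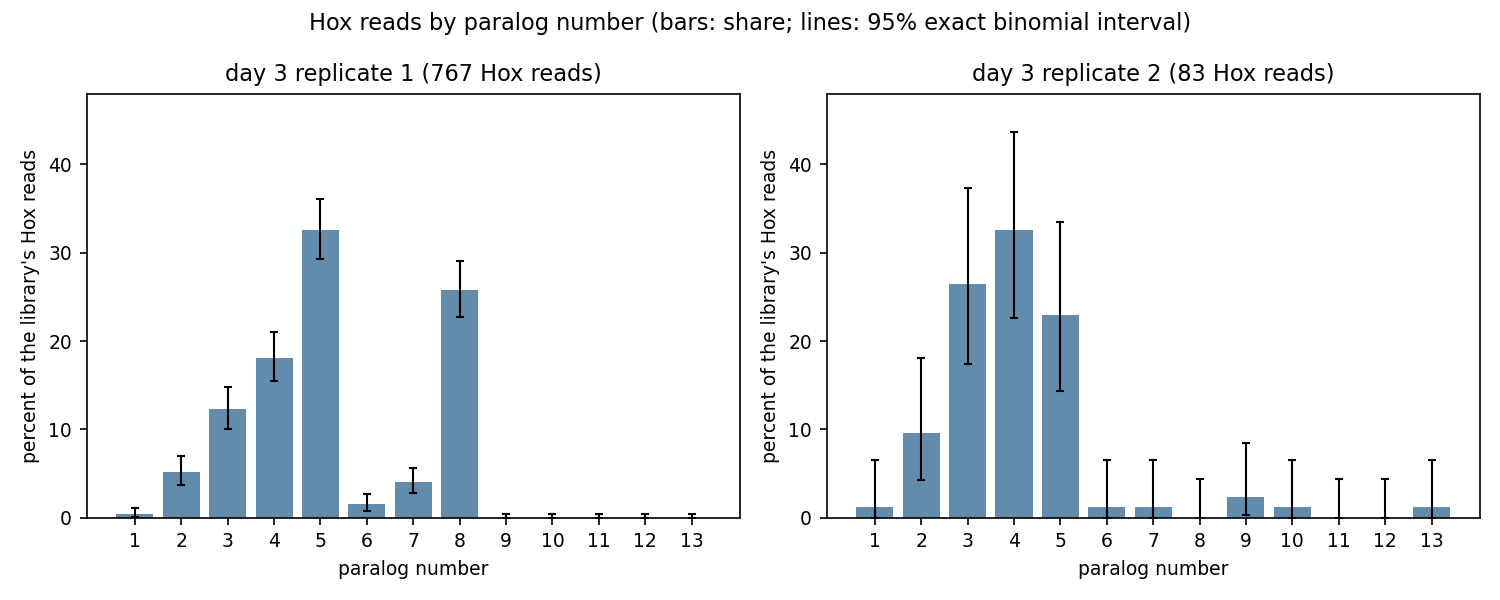
Share of the Hox reads of a library (y axis, percent) by paralog number (x axis) in day 3 replicates 1 and 2; bars are shares and lines are 95% exact binomial intervals. Number 8 holds 25.8% in replicate 1 and 0 reads in replicate 2, while numbers 3 and 4 hold larger shares in replicate 2.

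The excess of replicate 1 over replicate 2 was thus not the same for every paralog number. In normalized counts the ratio was 4.45 (95% counting interval 2.06 to 11.0) for number 2, 3.81 (2.37 to 6.36) for number 3 and 4.59 (3.02 to 7.21) for number 4. It was 11.7 (7.35 to 19.8) for number 5, whose interval lies above those of numbers 3 and 4, and 10.7 (1.58 to 457) for number 6. Genes of the same number differed as well. Hoxb4 had 46 and 2 reads in replicates 1 and 2, against 58 and 14 for Hoxc4. Hoxa5 had 130 and 4 reads, against 99 and 15 for Hoxb5. The ratio of a number thus depends on which of its genes held the reads. For number 7, with 31 and 1 reads, it was 27.6 (4.60 to 1126), and for number 8, set against a floor of 3 reads, at least 58.8. Taken over blocks it was 6.09 (4.78 to 7.83) for numbers 1 to 5 and 107 (29.4 to 891) for numbers 6 to 8, the last on 2 reads in replicate 2.

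**Figure D4:**
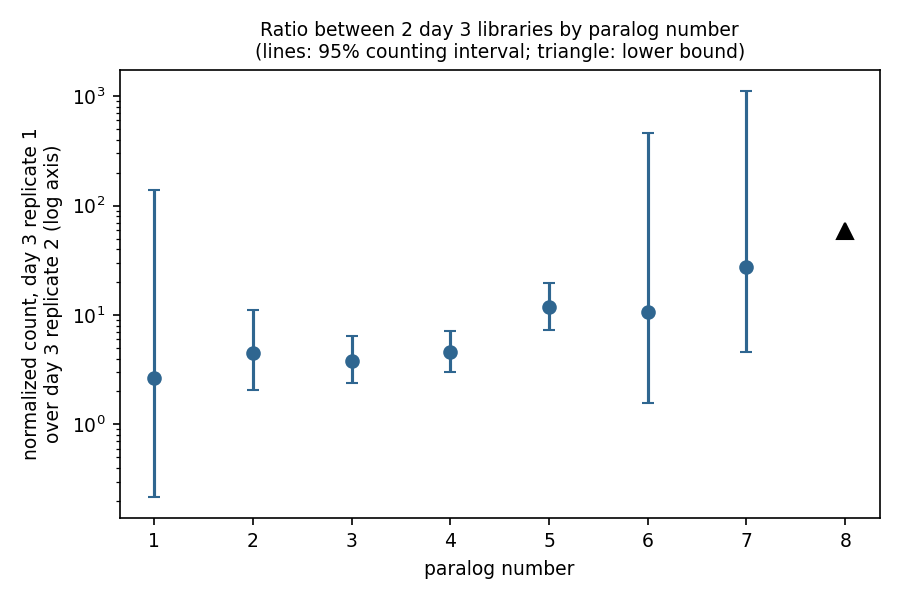
Normalized count of day 3 replicate 1 over day 3 replicate 2 (y axis, log scale) by paralog number (x axis), with lines for the 95% counting interval; the triangle at number 8 is a lower bound. Numbers 2 to 4 lie between 3.81 and 4.59, numbers 5 and 6 at 11.7 and 10.7, and the bound for number 8 at 58.8.

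Per length, using exon lengths of GENCODE M21, Hoxb8 and Hoxa5 were the most abundant in day 3 replicate 1, at 4.82 and 4.61 RPKM (RPM per kilobase of exon). There followed Hoxb5 at 2.36, Hoxc4 at 1.50, Hoxa4 at 1.38 and Hoxb4 at 1.19. In day 3 replicate 2 the order of these levels was another, with Hoxa4 at 0.446, Hoxc4 at 0.387, Hoxb5 at 0.382 and Hoxb3 at 0.317, while Hoxa5 stood at 0.151 and Hoxb4 at 0.0554. Those 4 rest on 10 to 19 reads each and cannot be ranked among themselves at this depth.

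Cluster B held the largest share of Hox reads in both libraries, 58.0% in replicate 1 and 53.0% in replicate 2, and cluster D the smallest, 3.78% and 4.82%. Cluster A held 27.5% and 21.7%, and cluster C 10.7% and 20.5%. At day 28 the pattern was another: 8 of the 12 reads lay in cluster D, 5 from Hoxd1 and 3 from Hoxd3, with 2 in A, 2 in B and 0 in C. With 12 reads this says little about which genes were expressed.

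Most reads of the other transcripts of the clusters also came from day 3 libraries, though not in the proportions of the Hox reads. Evx1 and Evx2, homeobox genes at the ends of clusters A and D that mark a class of spinal interneurons in the embryo, had 0 reads in all day 28 libraries, against 6, 6 and 5 reads (Evx1) and 23, 14 and 4 reads (Evx2) in day 3 replicates 1, 2 and 3. Their groups do not overlap, lower at day 28, which holds for 6.29% of all genes with a read. Evx1 differed little between the day 3 libraries. None of the 18 listed transcripts found in the table passed the filter, so none was tested. Within the clusters lie 29 annotated genes that are not Hox genes, several of the listed ones included and Evx1 and Evx2 not. Together they had 0, 5 and 5 reads at day 28, against 65, 31 and 0 at day 3.

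Hoxb3os, an antisense transcript of the Hoxb3 region, had 0, 0 and 0 reads at day 28, against 22, 19 and 0 at day 3. Haglr, a long non-coding RNA that overlaps Hoxd3, had 0, 0 and 1 reads at day 28, against 20, 1 and 0 at day 3. Hotair, Hottip, Hoxa11os and Hoxb5os were at 0 throughout. The libraries were stranded, but the counting setting is not given in the sources used here, so reads of a Hox gene and of an antisense partner over it may not be separated. Of the 39 genes, 19 overlap such a named transcript with the gene itself or with the 1000 bases before its start, and the other 20 had 0 reads at day 28 and 291 at day 3. Counting only overlaps with the gene itself, 23 genes have none, and they had 5 reads at day 28 and 352 at day 3.

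The partners of Hox proteins were abundant and were not called. All 9 listed genes of the Pbx, Meis and Pknox families were tested, 0 were called in either direction and their median log2 difference was 0.31, beside -0.01 over all tested genes. Meis2 had 4926, 3744 and 2977 reads at day 28, against 1763, 1731 and 1848 at day 3 (log2 difference 0.95, adjusted p = 0.107 by limma), and Pbx3 had 926, 682 and 505 at day 28, against 446, 367 and 348 at day 3 (0.68, adjusted p = 0.221 by limma). In both the groups do not overlap, higher at day 28, which holds for 9.71% of all tested genes. Meis1, in contrast, had 183, 198 and 141 reads at day 28, against 339, 220 and 123 at day 3, with day 3 replicate 1 the highest library (log2 difference -0.43, adjusted p = 0.529 by limma).

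Of 24 regulators of Hox genes and genes of retinoic acid signalling, 18 were tested, 0 were called and the median log2 difference was -0.07. Cdx1 and Cdx2, which switch on Hox genes of middle number in the embryo, had 0 reads in every library. Egr2, which controls Hoxa2 and Hoxb2 in the embryonic hindbrain and is also an activity-induced gene in adult neurons, had 283, 451 and 237 reads at day 28, against 37, 97 and 97 at day 3 (log2 difference 1.98, adjusted p = 0.117 by limma). Crabp1, which binds retinoic acid in the cytosol, had 58, 36 and 55 reads at day 28, against 12, 10 and 20 at day 3 (1.64, adjusted p = 0.190 by limma). Both stood higher in every day 28 library than in any day 3 library, as did 9.71% of all tested genes, and neither passed the threshold. Of the 18 tested genes of this list, the groups did not overlap for 3 higher at day 28 and for 3 lower. Over all tested genes the shares were 9.71% and 9.21%.

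Also on this list, and chosen after their values were seen, were Cyp26b1, which degrades retinoic acid, and Aldh1a1, which makes it. Cyp26b1 had 92, 103 and 111 reads at day 28, against 268, 205 and 145 at day 3 (log2 difference -1.11, adjusted p = 0.0710 by limma), and Aldh1a1 had 226, 298 and 400 at day 28, against 987, 1242 and 437 at day 3 (-1.58, adjusted p = 0.0877 by limma). In both the groups do not overlap, lower at day 28, which holds for 9.21% of all tested genes, and neither passed the threshold. Of 22 Polycomb and trithorax genes, which silence and maintain Hox clusters, all were tested, 0 were called and the median was 0.12. Ring1 (0.47, adjusted p = 0.368 by limma) and Ezh2 (0.40, adjusted p = 0.594 by limma) had the largest differences among them.

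The summed level of markers listed for hindbrain and spinal neurons was highest in the same libraries, though not that of every marker. Not all of these markers are particular to neurons that express Hox genes. The summed normalized count of the 18 markers was 397, 452 and 409 at day 28, against 1807, 1190 and 480 in day 3 replicates 1, 2 and 3. The day 3 libraries stood in the same order as in the Hox sum, as they also did for the cerebellar and the midbrain and isthmus lists. The glycine transporter gene Slc6a5 alone gave 902, 484 and 62.1 of those day 3 sums, against 0, 0 and 6.63 at day 28. Most of each day 28 sum came from Slc5a7 (137, 157 and 152), Isl1 (112, 93.8 and 73.0), Chat (65.9, 84.8 and 93.8) and Slc18a3 (50.9, 64.3 and 39.8). The day 28 sums thus say little of the rest. Of the 18 markers 12 were tested, 0 were called in either direction and the median log2 difference was -2.84. The groups did not overlap for 7 markers, lower at day 28, and for Isl1, higher at day 28, against 6.29% lower and 6.61% higher over all genes with a read. Mnx1, a marker of spinal motor neurons, was at 0 in every library, and 6 markers, Mnx1 included, were at 0 in all day 28 libraries.

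Slc6a5, the glycine transporter of inhibitory neurons in hindbrain and spinal cord, had 0, 0 and 7 reads at day 28, against 985, 471 and 51 at day 3 (log2 difference -7.26, adjusted p = 0.0507 by limma). Slc6a4, the serotonin transporter of raphe neurons, had 0, 1 and 0 at day 28, against 51, 13 and 15 at day 3 (-4.26, adjusted p = 0.125 by limma). Chat, the enzyme of cholinergic neurons, overlapped between groups, with 66, 95 and 99 reads at day 28, against 72, 44 and 72 at day 3. The part of these markers in the Hox values was not tested.

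Markers of regions that do not use Hox genes also differed between libraries. The 10 midbrain and isthmus markers summed to 509, 204 and 234 at day 28, against 1202, 1133 and 596 at day 3. Th gave 417, 141 and 79.6 of the day 28 sums, and its groups overlapped (log2 difference -0.03, adjusted p = 0.986 by limma). En2 gave 665, 556 and 37.7 of the day 3 sums. All 6 tested markers had negative differences, and 2 were called, both lower at day 28, against 0.124% of all tested genes. Slc6a3, the dopamine transporter, fell at day 28 to 4, 2 and 3 reads, against 200, 183 and 156 at day 3 (log2 difference -5.64, adjusted p = 0.00405 by limma). En1, a transcription factor of the midbrain-hindbrain border, fell to 0, 0 and 0 reads at day 28, against 44, 63 and 51 at day 3 (-5.80, adjusted p = 0.0345 by limma). Both stood at a like level in all 3 day 3 libraries, where the Hox sum spread from 9.74 to 703. Neither passed the threshold with voom (adjusted p = 0.0534 and 0.0717) or with a replicate block (0.0618 and 0.0863); with 1 library left out Slc6a3 passed in all 6 limma fits (adjusted p up to 0.0337) and En1 in 1 of 6 (up to 0.186).

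Of the 12 cerebellar markers, all tested, 0 were called and the median was -2.32. Gabra6, a receptor subunit of granule cells, had 0, 0 and 211 reads at day 28, against 2295, 2117 and 0 at day 3 (log2 difference -4.83, adjusted p = 0.533 by limma). Pcp2, a Purkinje cell gene, had 3, 0 and 72 at day 28, against 820, 939 and 7 at day 3 (-4.87, adjusted p = 0.320 by limma). Day 3 replicates 1 and 2 were alike in these markers, while their Hox sums differed 8.23 times. All 12 forebrain markers had positive differences, 0 were called and the median was 0.60; Dlx1 (1.50, adjusted p = 0.149 by limma) and Dlx2 (1.41, adjusted p = 0.257 by limma) had the largest.

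**Figure D5:**
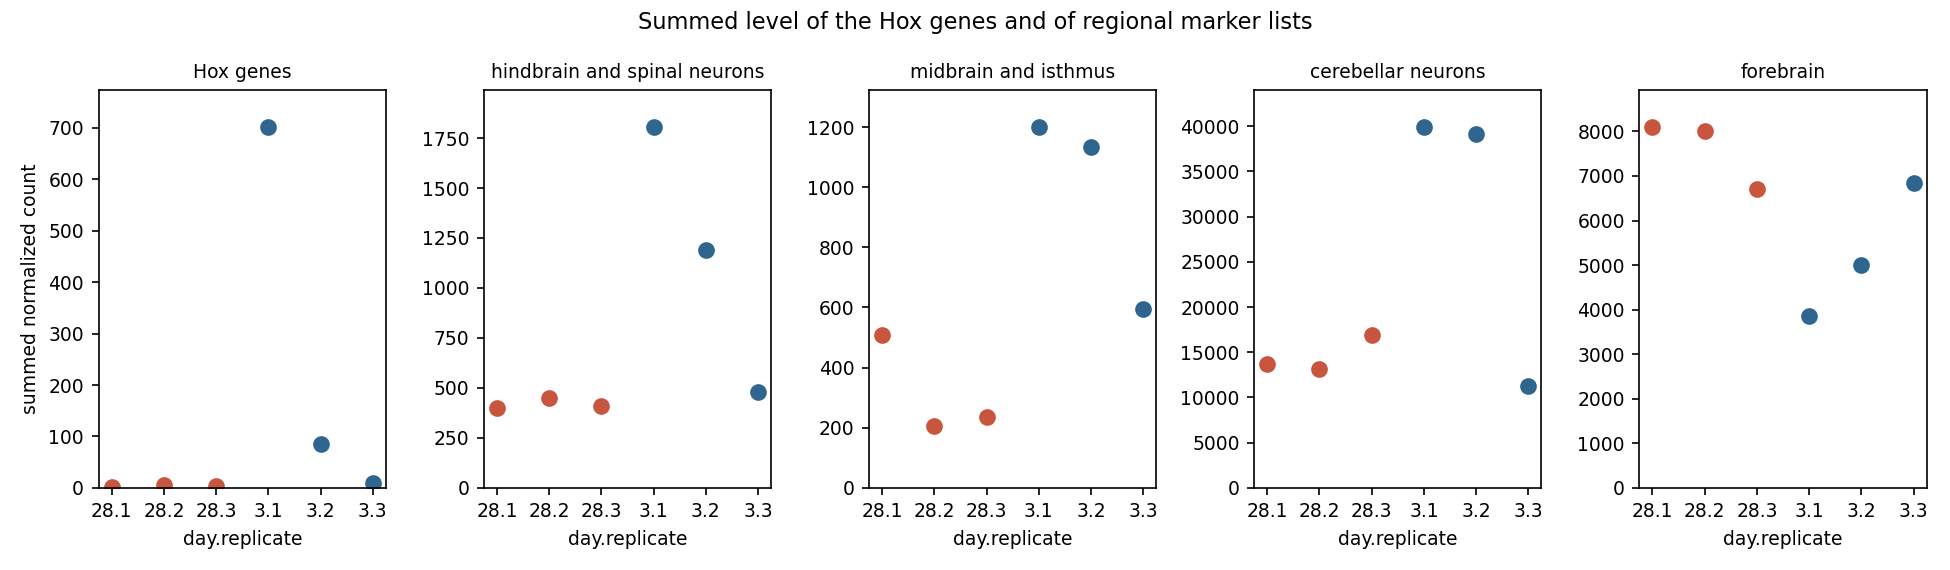
Summed normalized counts (y axes, linear and different in each panel) of the Hox genes and of 4 regional marker lists in each library (x axis, day and replicate), with day 28 in orange left of day 3 in blue. The hindbrain and spinal, midbrain and isthmus, and cerebellar lists all order the day 3 libraries as the Hox sum does. The cerebellar list is alike in day 3 replicates 1 and 2 (39950 and 39102). Itpr1 gives most of the cerebellar sum in the day 28 libraries and in day 3 replicate 3.

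Cells other than brain neurons can also express Hox genes, and markers of several, mostly from outside the brain, were measured. The median log2 difference was -0.60 for fibroblast, 0.23 for skeletal muscle, -0.33 for keratinocyte, -0.80 for neutrophil and progenitor, -0.98 for red blood cell, -0.56 for sensory ganglion, -0.03 for liver and -0.32 for choroid plexus markers. Fibroblast markers summed to 1223, 1074 and 1022 at day 28, against 1422, 1430 and 1376 at day 3; 1 of 6 tested, the matrix gene Dcn, was called, lower at day 28 (-1.81, adjusted p = 0.0345 by limma), against 0.124% of all tested genes. Dcn did not pass with voom (adjusted p = 0.0534) or with a replicate block (0.0842), and passed in 1 of 6 limma fits with 1 library left out (adjusted p up to 0.186). Skeletal muscle markers summed to 111, 97.3 and 120 at day 28, against 61.4, 173 and 91.3 at day 3, so day 3 replicate 1 was the lowest library, and Ckm, the muscle creatine kinase, had 0, 0 and 0 reads at day 28, against 1, 11 and 0 at day 3. The myosin genes Myh1 (1.05, adjusted p = 0.467 by limma) and Myh2 (0.36, adjusted p = 0.848 by limma) had its largest differences. Keratinocyte markers summed to 173, 162 and 128 at day 28, against 134, 205 and 181 at day 3, with differences of -0.82 for Krt1 (adjusted p = 0.358 by limma) and 0.15 for Krt10 (adjusted p = 0.810 by limma), and the defining keratins Krt5 and Krt14 had at most 1 read in any library.

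Neutrophil and progenitor markers summed to 964, 1047 and 1006 at day 28, against 1516, 1492 and 1052 at day 3, most of it Kit and Cd34, which brain cells also express. Their largest differences were those of S100a9 (-1.94, adjusted p = 0.433 by limma) and Kit (-0.80, adjusted p = 0.236 by limma). Of the granule genes, Mpo and Elane had 0 reads in day 3 replicate 1, Ngp had 2, Camp 4 and Ltf 9. For Ltf this was the highest library. Red blood cell markers summed to 1606, 2146 and 1808 at day 28, against 2247, 5212 and 3823 at day 3, and sensory ganglion markers to 82.9, 86.6 and 76.8 at day 28, against 110, 108 and 96.1 at day 3. None of these was called. The largest differences were those of the haem synthesis gene Alas2 (-1.33, adjusted p = 0.0917 by limma) and the globin gene Hbb-bt (-1.12, adjusted p = 0.138 by limma) for red blood cells, and of Pou4f1 (-1.43, adjusted p = 0.375 by limma) for sensory ganglia. Choroid plexus markers summed to 7982, 7996 and 11743 at day 28, against 6847, 14868 and 8043 at day 3, with Otx2 (-0.73, adjusted p = 0.449 by limma) and Folr1 (-0.35, adjusted p = 0.740 by limma) the largest differences and none called. Of the liver markers none was called, and Serpina1a (-0.98, adjusted p = 0.862 by limma) and Apoa2 (0.79, adjusted p = 0.915 by limma) differed most. Over these 8 lists the summed level of day 3 replicate 1 was 0.0656 to 1.02 times that of replicate 2. The lowest ratio was that of liver with Ttr, and without Ttr it was 0.000371. The same ratio was 8.23 for the Hox genes. Among the regional lists it was 1.52 for hindbrain and spinal, 1.06 for midbrain and isthmus, 1.02 for cerebellar and 0.773 for forebrain markers. Few genes can carry such a sum: Pdgfra gave 726 and 736 of the fibroblast sums of day 3 replicates 1 and 2. Slc6a5 gave 902 and 484 of the hindbrain and spinal sums of the same libraries. The part of these cells in the Hox values was not tested.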

How the data were processed

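Poly(A)-selected, stranded RNA libraries were made from total RNA of homogenized brain, per the labels' protocols. The authors deposited 1 table of log2 values per gene and library on GRCm39, per the submitters' processing notes; the aligner, counter, strand setting and annotation are not given in the sources used here. The deposited values equal log2(count / size factor + 1), and whole reads were recovered for 100% of them within 0.001 reads. Symbols were matched for 52073 of 56748 gene IDs. The main test was limma 3.58.1 (R 4.3.3; group term, intensity trend, two-sided, Benjamini-Hochberg threshold of 0.05) on the log2 values of the 16162 genes whose normalized count averaged 10 or more; it was tested on simulated data. Genes under that filter are given as reads. Totals per library of 11958137 to 16059196 reads set the precision. Exon lengths came from GENCODE M21. All Hox genes past the filter are named with their value in each library, other Hox genes with their reads, and of each list the members past the threshold or the 2 with the largest differences; 1 Hox gene, counted in all sums, and 1 listed marker are not reported singly here. Members and lists were chosen with earlier results of these data known. Alternatives changed the scaling, pseudocount, filter, prior, weights, test, replicate block and the libraries used. Figures used matplotlib 3.10.9.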

Additional observations from a re-analysis of the deposited data

How the results depend on the processing

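No Hox gene was called under any alternative run, among them a threshold of 0.10, no filter (24 Hox genes in the fit, 6 at an unadjusted p under 0.05, lowest adjusted p = 0.131 by limma), voom on the recovered reads, and each library left out. The replicate numbers gave no sign of a pairing of libraries. Correlations of same-numbered libraries, as deviations from their group means, were 0.03, 0.13 and -0.06. Those of libraries with unlike numbers lay between -0.20 and 0.16. With 3 libraries per group these values cannot exclude a pairing. With a replicate block 0 genes and 0 Hox genes were called. Over all tested genes the 31 calls became 152 at a threshold of 0.10, 48 with a filter of mean 1, 68 with no filter, 3 without the intensity trend, 74 with a robust prior, 69 with library weights, 0 with voom, 0 without day 3 replicates 1 and 2 together (chosen after seeing the data), and 1 to 623 with 1 library left out, highest without day 3 replicate 3; the cause was not tested. The log2 difference of the summed Hox level, -6.17, lay between -6.78 and -3.69 with 1 library left out and was -1.40 without day 3 replicates 1 and 2. It was -6.21 with RPM scaling, -4.31 as a mean of logs, -6.29 for numbers 1 to 8, and at most -6.57, from a floor of 3 reads over day 28, for the 20 Hox genes with no named transcript over them or the 1000 bases before their start. It was -6.16 for the 23 with none over the gene itself, also chosen after seeing the data. Of the 6 Hox genes read at day 28, 0 had reads in every library, 2 had at least 3 and 0 at least 10 reads in a library, and 3 to 5 were read with 1 library left out. Of the 24 at day 3 these counts were 4, 17 and 13, with 19 to 24 when 1 library was left out and 6 without replicates 1 and 2. Without those 2 libraries the log2 differences of Hoxb3 (0.32) and Hoxb5 (0.33) had the other sign, since their reads at day 3 lay in those libraries. Depth limits the day 28 values: with 2 to 7 Hox reads per library, differences among these libraries were not detectable.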

Other observations

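Of 15973 named genes tested outside the clusters, 3 had a Pearson correlation over 0.99, and 97 over 0.95, with log2(summed Hox level + 1) over the 6 libraries. The 10 highest were Litaf, BC037039, Nrg2, Whrn, Sp140, Acvrl1, Ankrd54, Sat2, C1qb and A930024E05Rik, with r between 0.983 and 0.999. The points share library and depth, and 1 library sets much of the range, so the values describe these libraries only. C1qb, a complement component made by microglia, had 298, 374 and 347 reads at day 28, against 940, 471 and 290 at day 3. Litaf, an endosomal membrane protein, had 224, 266 and 239 reads at day 28, against 382, 280 and 203 at day 3. Sp140, a nuclear body protein of immune cells, had 4, 6 and 5 reads at day 28, against 41, 13 and 4 at day 3. The choice of genes by correlation fixes that they share the pattern of the Hox sum.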
